A study of Mus musculus with 12 samples.

Results

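The genes of Wnt signalling described here were taken from the gene table by symbol: all Wnt ligands (Wnt followed by a digit), all Frizzled receptors (Fzd), the secreted antagonists of the Sfrp and Dkk families, and Lrp5, Lrp6, Ctnnb1, Axin1, Axin2, Lef1, Tcf7, Tcf7l1, Tcf7l2, Lgr4, Lgr5, Rnf43, Znrf3 and Amer1. They came to 51 of the 20308 genes in the table. Expression had been measured by RNA sequencing in 12 libraries of C57BL/6J mouse urogenital sinus epithelium at embryonic day 15.5. The urogenital sinus is the embryonic tube from which the bladder neck, urethra and prostate form. The 4 Control libraries were labelled wildtype. The other 8, Dnmt1cKO, carried a Cre under Shh control, which acts in cells that express or have expressed Shh. It deleted Dnmt1, the methyltransferase that copies DNA methylation to new strands. In both groups the epithelium was freed from stroma with trypsin, and tissue of several embryos was pooled in each lysate. The comparison asked how loss of Dnmt1 alters transcripts in this epithelium.

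Wnt proteins are secreted, lipid-bearing ligands that bind a Frizzled receptor together with the co-receptor Lrp5 or Lrp6. Binding stops the destruction complex, built on the Axin and Apc scaffolds, from marking β-catenin for degradation, and β-catenin then enters the nucleus and acts with Lef1 and the Tcf factors. Sfrp and Dkk proteins block ligand or co-receptor, Rnf43 and Znrf3 remove Frizzled receptors from the membrane, and Lgr4 and Lgr5 bind R-spondins that relieve this removal. In the urogenital sinus, Wnt signals pass between epithelium and mesenchyme and take part in the budding of the prostate.

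The libraries were unequal, and this bears on every value below. The Control libraries 1 to 4 held 7577706, 2915193, 1613514 and 543591 expected counts, against 4007533 to 11970907 in Dnmt1cKO, and 38, 33, 31 and 17 of the 51 genes had a count in them, against 33 to 44 in Dnmt1cKO. A single count was worth 2.84 CPM (the rounded count scaled by the TMM-adjusted library total) in the fourth Control library, and 0.073 to 0.754 CPM in the others. On the first principal component of all genes (39.5% of the variance) this library (245.7) and Control 3 (127.3) stood apart from all others (-52.63 to -3.661). Dnmt1, the deleted gene, was at 164, 114, 237 and 2.84 CPM in Controls 1 to 4 and at 22.8 to 97.0 CPM in Dnmt1cKO. The fourth value, a single count, was lower than in any Dnmt1cKO library, which goes against the label, so that library is called "the library labelled Control 4". In it 47.7% of all tested genes had no count. The part of its low depth in the Dnmt1 value was not tested. The Dnmt1 difference did not reach the threshold of 0.05 (log2 fold change -1.29 ± 0.63 (SE), edgeR, Benjamini-Hochberg adjusted p = 0.284). Which exons were deleted is not given in the sources used here. Control values are always given in the order 1 to 4, so the last is the library labelled Control 4.

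Epithelial markers were found in all libraries, with 20 of 24 detected in every one, and so were stromal markers, with 20 of 27. The summed level of the stromal markers was 6218, 7069, 14230 and 1880 CPM in the Controls and 492 to 7740 CPM in Dnmt1cKO, highest in Control 3. The epithelial sum was 11100, 20940, 4398 and 40860 CPM against 7815 to 13770 CPM, highest in the library labelled Control 4 and lowest in Control 3. Markers of the Wolffian and Müllerian ducts summed to 212, 203, 743 and 580 CPM against 68.0 to 367 CPM, with Pax2 and Amhr2 at 0 in every Control. Gata3, which other epithelia also express, made up most of the sum in 3 of the 4, at 171, 196, 333 and 580 CPM, and the whole of it in the library labelled Control 4. It was called lower in Dnmt1cKO (67.8 to 168 CPM, no overlap, log2 fold change -1.55 ± 0.44, edgeR, Benjamini-Hochberg adjusted p = 0.0459). Of the neural markers Elavl3 was called lower (-3.97 ± 1.08, adjusted p = 0.0382). In bulk tissue, fewer cells of a type and less RNA per cell cannot be told apart.

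Of the 51 genes, 41 passed the filter on low counts and were tested. Wnt10b rose, Wnt4 and Amer1 fell, and 38 were not called (edgeR quasi-likelihood F-test, Benjamini-Hochberg adjusted p under 0.05 over 12761 genes). Among all genes tested, 1.03% were called higher and 1.55% lower (2.59% in either direction), so 1 higher and 2 lower of 41 stand near the background. With an unadjusted p below 0.05 there were 5 higher and 4 lower genes among the 41, where 8.19% and 9.54% of all tested genes were. The fitted log2 fold change was above 0 for 22 genes and below 0 for 19, with a median of 0.03 against 0.22 over all genes (57.3% of which were above 0). Dkk1 and Wnt16, with no Control count, are in that median with fitted values. Their lower bounds also lie above the median, so placing them there cannot change it. Wnt10b, Fzd6 and Lrp5 lay above every Control in all 8 Dnmt1cKO libraries (2.59% of all tested genes did), and Amer1 lay below (0.486%).

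Of the 19 genes with a negative log2 fold change, 18 had their highest level in Control 3 or in the library labelled Control 4, and the exception was Sfrp2, highest in Control 1. The same was true of 68.5% of all tested genes with a negative value. Without these libraries, 42 of the genes could be tested and none was called, where edgeR called 0.322% of all genes higher and 0.0143% lower. An unadjusted p below 0.05 was then found for 6 higher (Wnt10b, Fzd6, Dkk1, Wnt7a, Ctnnb1, Lrp5) and 2 lower genes (Wnt4, Amer1), against 6.96% and 2.22% of all genes tested. On all 12 libraries DESeq2 gave an adjusted p to 38 of the genes and called 2 higher and 5 lower, against 4.01% and 8.47% of the 12159 genes to which it gave one. Limma-voom called 0 of the 41 higher (0.0549% of all genes) and 0 lower (0.196%). The plot of every gene by library shows how often Control 3 and the library labelled Control 4 hold the extremes.

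**Figure D1:**
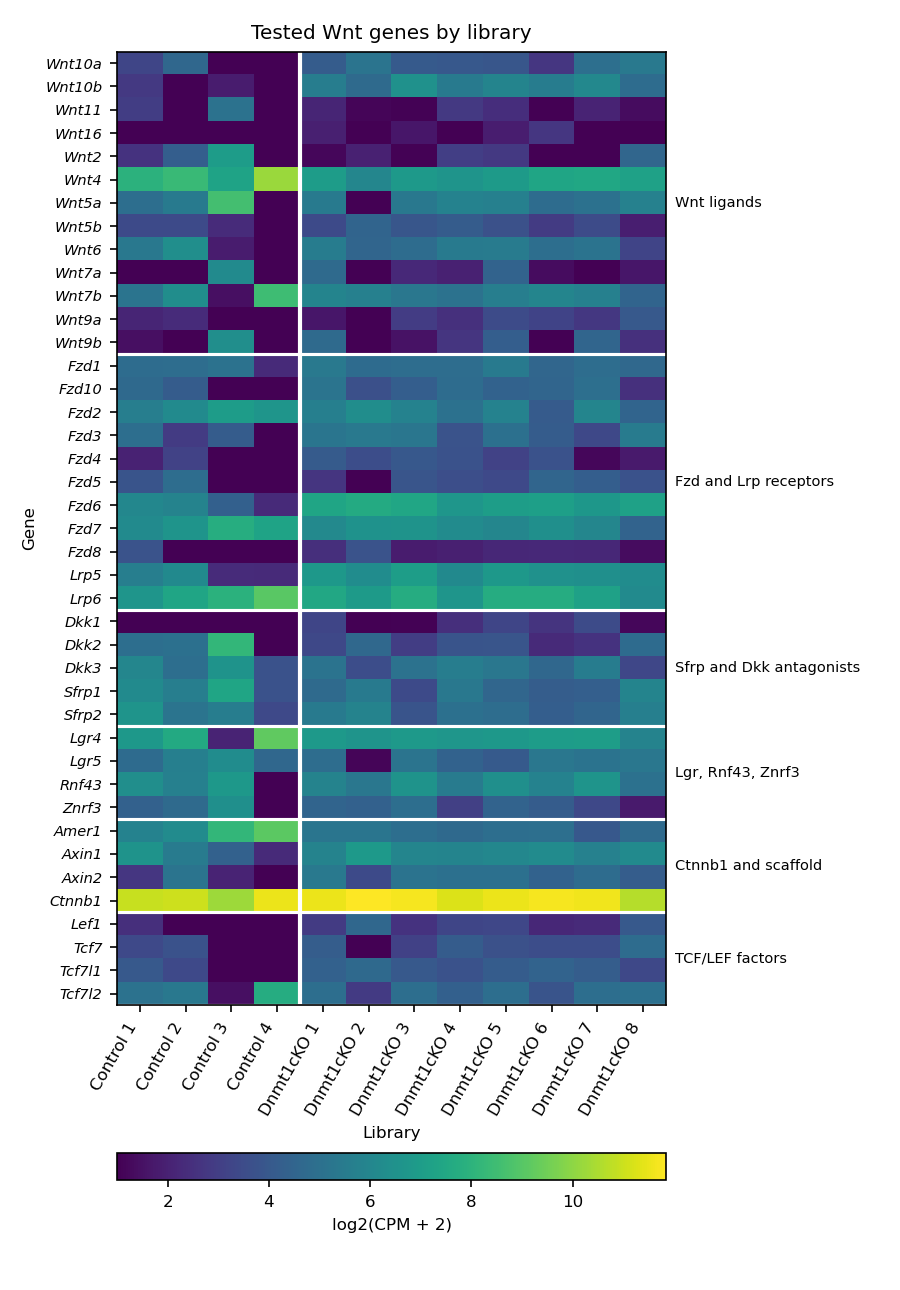
Heat map of the 41 tested genes (vertical axis, grouped by role) in the 12 libraries (horizontal axis), with colour giving log2(CPM + 2). The column of the library labelled Control 4 is at the lowest colour, 0 CPM, for 24 of the 41 genes (58.5%, against 47.7% of all tested genes). It holds the highest value of others, such as Wnt4 at 1183 CPM.

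The promoters of Wnt10b and Wnt4 are shown because these are the ligands called in opposite directions. Dnmt1 acts on the base pair CG, marked here in capitals, but methylation was not measured in these files. The windows come from the RefSeq promoter table (build GRCm38.p6) and are printed 5′ to 3′ on the gene's strand, as far as the bases before the annotated start in both RefSeq and GENCODE M21. Wnt10b lies on the minus strand and its window at chr15:98778151-98778400 has 250 bases with 14 CG pairs, while the Wnt4 window at chr4:137277385-137277488, on the plus strand, has 104 bases with 16.
Wnt10b: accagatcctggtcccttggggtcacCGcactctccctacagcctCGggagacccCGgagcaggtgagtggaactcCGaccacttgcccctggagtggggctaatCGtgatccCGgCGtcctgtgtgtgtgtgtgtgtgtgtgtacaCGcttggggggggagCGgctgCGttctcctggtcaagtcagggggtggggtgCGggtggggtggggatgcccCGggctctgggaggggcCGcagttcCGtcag
Wnt4: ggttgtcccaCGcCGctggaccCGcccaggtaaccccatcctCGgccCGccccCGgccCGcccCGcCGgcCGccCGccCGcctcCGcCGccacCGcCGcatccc
In the whole table window, from 250 bases before to 50 after the start, Wnt10b had 18 CG pairs, which 29.7% of the 32851 promoters in the table reach, and Wnt4 had 51, which 0.715% reach.

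For the Wnt genes, promoters on chromosome 18, where Wnt8a and Fzd8 lie, were not read. RefSeq promoters were found elsewhere for 33 of the 51 genes, 43 promoters in all. The remaining 18 include Wnt8a and Fzd8, which were not looked up, and Amer1 and Fzd6, for which none was found. The median of the 43 was 24 CG pairs against 7 over all promoters, and 39 of 43 had at least 7. The letters CTTTG, the core of the site that Tcf factors bind, were counted on both strands. They occurred in 20 of the 43 (46.5%) and in 53.9% of all promoters of the same length. The longer ATCAAAG, each match of which is also a CTTTG match on the other strand, occurred in 2 (Wnt11 and Wnt5b) and in 3.73% of all. Dkk1 had 4 CTTTG matches, a number that 1.4% of promoters reach, and Axin2, with 31 CG pairs, had 0. Such matches are letters in a window and are not binding sites.

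**Figure D2:**
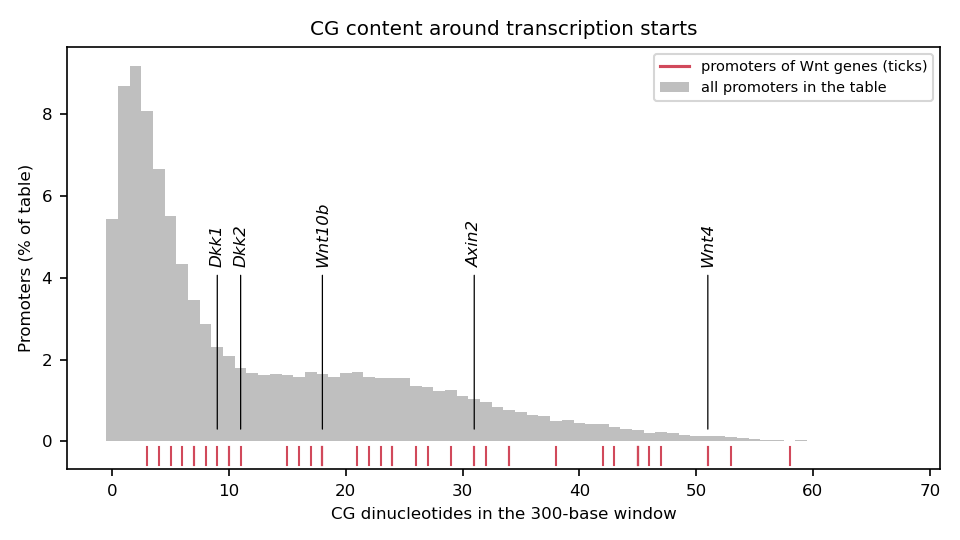
Grey bars give the percentage of the 32851 promoters in the RefSeq table (vertical axis) with each number of CG pairs in the 300-base window (horizontal axis). Red ticks mark the promoters of Wnt pathway genes outside chromosome 18. Their median of 24 lies to the right of the table's median of 7, and labelled lines mark Dkk1 at 9, Dkk2 at 11, Wnt10b at 18, Axin2 at 31 and Wnt4 at 51.

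Among the ligands, Wnt10b, which in other epithelia marks the placodes of hair and mammary buds, was nearly absent from the Controls and present in every Dnmt1cKO library. Its levels were 4.92, 0, 1.51 and 0 CPM in the Controls and 25.1 to 86.8 CPM (median 45.9) in Dnmt1cKO. Every Dnmt1cKO library lay above every Control, and the groups did not overlap. The mean was 1.61 ± 2.32 CPM in Control and 49.2 ± 20.2 CPM in Dnmt1cKO (SD), a log2 fold change of 4.61 ± 1.06 (SE; 24.4-fold; edgeR, Benjamini-Hochberg adjusted p = 0.0147). Since all Controls together held 42 counts of Wnt10b, the size rests on few reads, and without Control 1 it was 6.53. Leaving out Control 3 and the library labelled Control 4 together gave 4.24 ± 0.94 with adjusted p = 0.0707 (edgeR), so the call was lost while the size stayed. The description codes 4, 5, 6 and 7 are carried by both groups, and the labels do not state their meaning. Within them Dnmt1cKO was higher by 3.68, 4.47, 4.07 and 4.48 on the log2(CPM + 2) scale. Of all tested genes 48.5%, 56%, 64.7% and 78.4% were higher within these codes. For a gene without overlap between the groups, such as Wnt10b, the direction within every code is fixed in advance.

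Wnt4, a ligand of kidney and genital tract development, had the highest mean level of the ligands and fell. Its levels were 249, 323, 152 and 1183 CPM in the Controls and 60.6 to 174 CPM (median 121) in Dnmt1cKO. Controls 1 and 2 and the library labelled Control 4 lay above every Dnmt1cKO library, while Control 3 fell inside their range. The mean was 477 ± 476 CPM (SD, n = 4) against 124 ± 37.4 CPM (SD, n = 8), a log2 fold change of -1.93 ± 0.45 (SE; edgeR, Benjamini-Hochberg adjusted p = 0.0155). Without the library labelled Control 4, where the epithelial marker sum was also highest, the change was -0.89 with adjusted p = 0.234, and without that library and Control 3 it was -1.13 with adjusted p = 0.182 (edgeR). The part of the epithelial sum in this result was not tested. Within codes 4 to 7 the differences were -1.16, -1.73, -0.37 and -2.86. Except in code 6, that of Control 3, this direction was fixed in advance, since the other Controls lay above every Dnmt1cKO library. Of all tested genes 51.2%, 42.4%, 33.9% and 21.2% were lower within these codes.

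Scaled by exon length, which allows levels of different genes to be set side by side, Wnt4 led the ligands in Dnmt1cKO at 29.6 ± 8.91 CPM per kb (SD, n = 8). Wnt6, an epithelial ligand (14.8 ± 6.11), and Wnt10b (14.5 ± 5.95) came next and did not differ beyond their spread, followed by Wnt7b (9.66 ± 2.91) and Wnt10a (8.35 ± 4.96). In the Controls Wnt4 stood at 114 ± 114 CPM per kb (SD, n = 4) and Wnt10b at 0.472 ± 0.682, while in Dnmt1cKO Wnt10b took the third place of 19.

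Wnt7b and Wnt5a were the other ligands with a high mean level, and neither was called. Wnt7b, an epithelial ligand, was at 33.7, 78.6, 0.754 and 358 CPM in the Controls and 20.8 to 59.7 CPM (median 49.6) in Dnmt1cKO (log2 fold change -1.37 ± 0.73, adjusted p = 0.329). Wnt5a, a non-canonical ligand made by mesenchyme around many epithelia, was at 28.0, 41.5, 386 and 0 CPM and at 0 to 54.0 CPM (median 39.9) (log2 fold change -1.64, adjusted p = 0.388). Without Control 3 and the library labelled Control 4 the Wnt5a value turned to 0.16. Control 3, which holds the highest Wnt5a, also has the highest stromal sum.

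Wnt2, a mesenchymal ligand, was at 4.06, 16.9, 125 and 0 CPM in the Controls and 0 to 21.7 CPM (median 1.16) in Dnmt1cKO. Its log2 fold change of -3.08 had an unadjusted p of 0.0285 in edgeR and an adjusted p of 0.218, and was -0.75 without Control 3. Wnt16 had no count in any Control and 0 to 4.60 CPM in Dnmt1cKO, in 4 of 8 libraries, and was at least 5.99-fold higher, with 3 counts over the Control group as the floor (edgeR, adjusted p = 0.269). Wnt7a and Wnt9b, which pattern the genital ducts, were at 70.9 and 79.2 CPM in Control 3 and at 0 to 0.738 CPM in the other Controls. In Dnmt1cKO they ranged from 0 to 25.2 and from 0 to 24.7 CPM. Their fitted log2 fold changes were -1.46 and -1.16 (adjusted p = 0.673 and 0.721, edgeR). Without Control 3 and the library labelled Control 4, Wnt7a has no Control count left, and the value of Wnt9b turned to 4.45 (adjusted p = 0.587). Control 3 also has the highest sum of duct markers (743 CPM), and its part in these values was not tested.

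Wnt6, Wnt10a, Wnt5b, Wnt9a and Wnt11 overlapped between the groups and none was called. The ligands Wnt1, Wnt3a, Wnt8a and Wnt8b had no count in any library, nor had the antagonists Dkk4 and Sfrp4. The remaining untested genes were Wnt2b (56 counts over Dnmt1cKO, 1 over Control), Sfrp5 (42 and 0), Fzd9 (12 and 0) and Wnt3 (8 and 0). Fzd9 and Wnt3 came from a single library each. At this depth such counts do not show a difference between the groups.

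**Figure D3:**
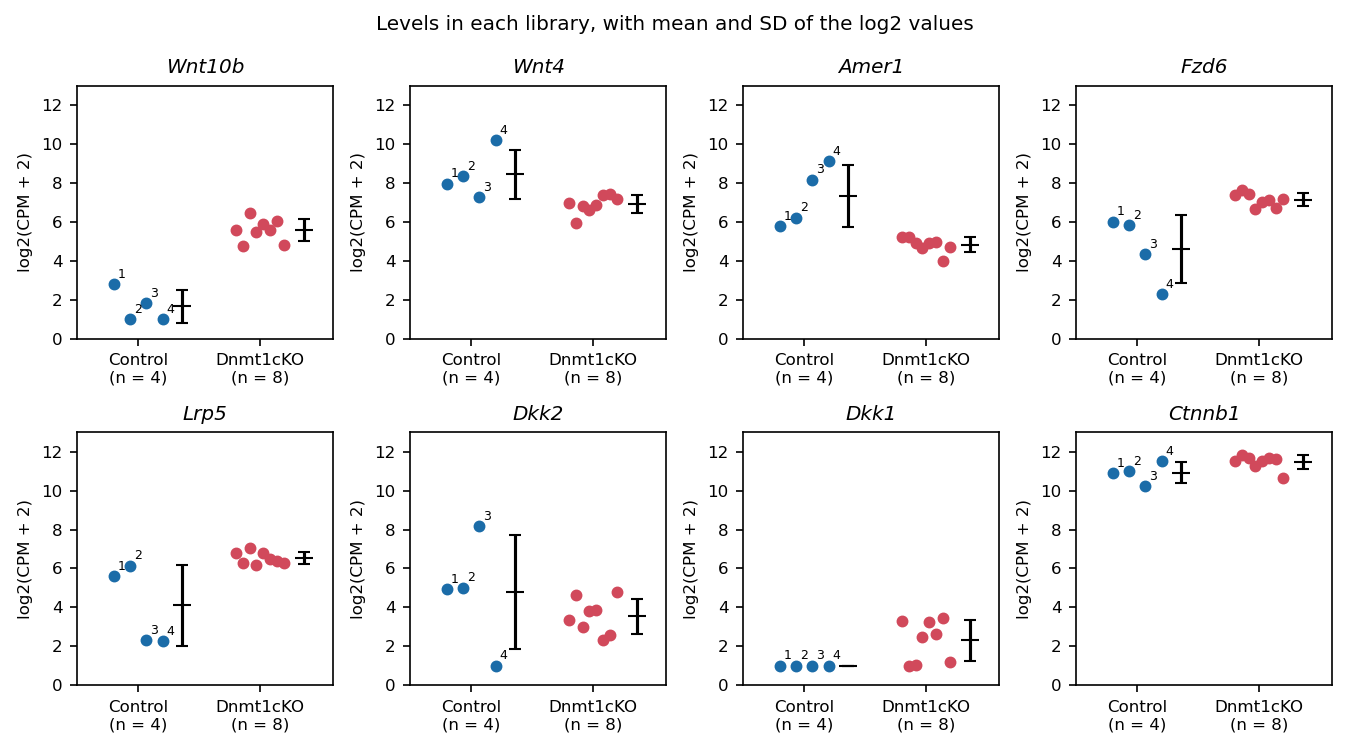
Levels of Wnt10b, Wnt4, Amer1, Fzd6, Lrp5, Dkk2, Dkk1 and Ctnnb1 as log2(CPM + 2), with 1 point per library (Control numbered 1 to 4, Dnmt1cKO 1 to 8 from left to right), the mean as a horizontal mark and the SD of the log2 values as a bar. Wnt10b, Fzd6 and Lrp5 are higher in all 8 Dnmt1cKO libraries, and the highest Control points of Wnt4 and Dkk2 are single libraries, at 1183 and 284 CPM.

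Among the 12 receptors, Fzd6 and Lrp5 stood wholly above the Controls, yet neither was called. Fzd6, a receptor of planar polarity and β-catenin-independent signalling, was at 62.7, 55.6, 18.1 and 2.84 CPM in the Controls and 100 to 198 CPM (median 142) in Dnmt1cKO. Control 3 and the library labelled Control 4 were the lowest of the 12. The mean was 34.8 ± 28.9 CPM in Control and 144 ± 33.1 CPM in Dnmt1cKO (SD), and the log2 fold change was 1.99 ± 0.62 (SE) with adjusted p = 0.0749 in edgeR. DESeq2 gave 1.89 with adjusted p = 0.00526, and edgeR without Control 1 gave 2.41 with adjusted p = 0.033. Without Control 1, 4.99% of all genes were called higher, against 1.03% with all libraries. Without Control 3 and the library labelled Control 4 the change of Fzd6 was 1.34 ± 0.33 (adjusted p = 0.115, edgeR). Within codes 4 to 7 the differences were 1.40, 0.83, 2.70 and 4.75, in a direction fixed in advance by the lack of overlap. Per kb of exon Fzd6 was first among the receptors in Dnmt1cKO at 32.8 ± 7.56 CPM (SD, n = 8), ahead of Lrp6 (16.4 ± 5.73), Lrp5 (15.3 ± 3.57) and Fzd7 (15.04 ± 5.14), which lay within each other's spread. In the Controls Fzd7 (29.7 ± 14.1) and Lrp6 (27.9 ± 20.7; SD, n = 4) were above Fzd6 (7.95 ± 6.60).

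Lrp5, a co-receptor, was at 47.3, 69.1, 3.02 and 2.84 CPM in the Controls and 69.6 to 130 CPM (median 85.0) in Dnmt1cKO. The gap to Control 2 was small, and the log2 fold change of 1.54 ± 0.71 had adjusted p = 0.248 (edgeR). It was 0.74 without Control 3 and the library labelled Control 4, and 0.01 within code 5. Lrp6, its paralogue, was at 98.0, 166, 244 and 537 CPM in the Controls and 71.9 to 208 CPM (median 162) in Dnmt1cKO. Its log2 fold change of -0.75 turned to 0.30 without the same libraries, and neither was called. Fzd7, a receptor of progenitor epithelia, was at 71.8, 96.8, 214 and 156 CPM against 19.7 to 92.5 CPM (median 70.2), with a log2 fold change of -0.98 ± 0.54 (adjusted p = 0.353, edgeR). The other receptors tested (Fzd1, Fzd2, Fzd3, Fzd4, Fzd5, Fzd8 and Fzd10) had adjusted p from 0.471 to 0.992.

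Of the 8 secreted antagonists 5 were tested and none was called by edgeR, although Dkk1 (higher) and Dkk2 (lower) had an unadjusted p below 0.05. By DESeq2 Dkk2 was called lower, and by limma-voom none was called. Dkk1, a direct β-catenin target that blocks Lrp5 and Lrp6, had no count in any Control and 358 counts over Dnmt1cKO. It was at 0 to 9.06 CPM in Dnmt1cKO (median 3.85), with a count in 7 of 8 libraries and 3.51 CPM or more in 5 of them. With 3 counts over the Control group as the floor, Dkk1 was at least 20.2-fold higher (edgeR, unadjusted p = 0.00806, adjusted p = 0.126). In Control 1, 3 counts amounted to 0.369 CPM, but in the library labelled Control 4 to 8.53 CPM, above the level of Dkk1 in 7 of 8 Dnmt1cKO libraries.

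Dkk2, which binds the same co-receptors, was at 28.5, 30.3, 284 and 0 CPM in the Controls and 2.90 to 25.4 CPM (median 10.1) in Dnmt1cKO. Controls 1, 2 and 3 were above every Dnmt1cKO library and the library labelled Control 4 was below all of them. Its log2 fold change of -2.88 ± 0.86 (adjusted p = 0.0621, edgeR) was -0.80 without Control 3 and passed the test with RLE factors (adjusted p = 0.0292) and with DESeq2 (-2.94, adjusted p = 0.00908). Sfrp1 was at 71.4, 47.9, 166 and 11.4 CPM against 8.79 to 57.9 CPM (median 23.3), and Sfrp2 at 96.1, 34.1, 46.7 and 8.53 CPM against 12.3 to 56.4 CPM (median 28.8), with log2 fold changes of -1.40 (adjusted p = 0.302) and -0.56 (adjusted p = 0.742). Dkk3 overlapped between the groups (adjusted p = 0.649). Dkk2, Sfrp1 and Sfrp2 are typical of mesenchyme. Control 3, with the highest stromal sum, held the highest Dkk2, Sfrp1 and Wnt2. Within Dnmt1cKO, the 3 libraries with the lowest stromal sums (replicates 3, 6 and 7, at 697, 492 and 671 CPM) were also the 3 with the lowest levels of Dkk2, Sfrp1, Sfrp2 and Wnt2. Wnt5a did not follow this order: its lowest library was Dnmt1cKO 2 (0 CPM), which has the highest stromal sum of the group (7740 CPM), and Dnmt1cKO 3 was at 38.2 CPM. Of the 27 stromal markers 26 were tested, with a median log2 fold change of -1.57 against 0.22 over all genes. Of these markers 9 were lower with an unadjusted p below 0.05, where 9.54% of all genes were, and 0 were called by edgeR. Replicates 3, 6 and 7 also had the lowest endothelial sums of Dnmt1cKO (8.71, 8.59 and 5.00 CPM). The same held for the erythroid (53.6, 10.5 and 39.1 CPM) and neural sums (65.3, 35.4 and 40.9 CPM). Control 3 had the highest of these sums, and of the immune sums, in all 12 libraries. The order is therefore not particular to stroma, although in the immune sum Dnmt1cKO 1 was below Dnmt1cKO 6. The part of stromal RNA, or of RNA from these other cells, in these results was not tested.

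**Figure D4:**
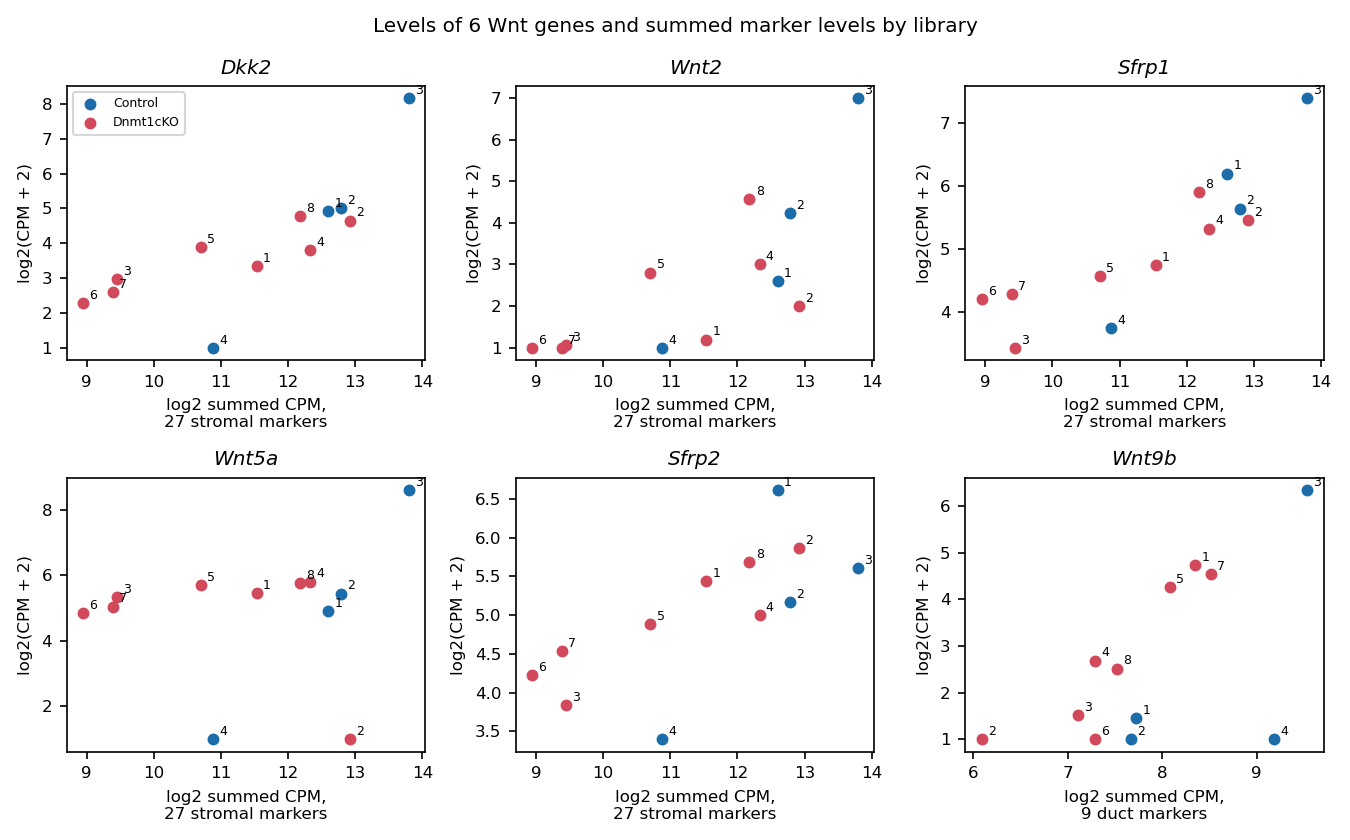
Level of Dkk2, Wnt2, Sfrp1, Wnt5a and Sfrp2 (vertical axes, log2(CPM + 2)) against the log2 summed CPM of the 27 stromal markers, and of Wnt9b against that of the 9 duct markers, with 1 numbered point per library. Control 3 has the highest marker sum in every panel, 14230 CPM for stroma and 743 CPM for ducts, and the highest level of each gene except Sfrp2.

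The 4 genes of receptor turnover were not called. Lgr4 was at 109, 193, 2.26 and 586 CPM in the Controls and 56.5 to 131 CPM (median 112) in Dnmt1cKO, so that the lowest and the highest of all 12 libraries were both Controls (log2 fold change -1.05, adjusted p = 0.392). Rnf43, a feedback ubiquitin ligase, was at 79.0, 50.6, 109 and 0 CPM against 31.4 to 94.8 CPM (median 55.5; log2 fold change 0.03, adjusted p = 0.989). Lgr5, a marker of epithelial stem cells in other organs, was at 26.1, 49.2, 76.1 and 22.7 CPM against 0.225 to 37.7 CPM (median 30.2; log2 fold change -0.78, adjusted p = 0.667). Znrf3, the second ligase, had a log2 fold change of -1.10 (adjusted p = 0.575).

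Of the β-catenin destruction complex, Amer1 fell. Amer1, which recruits the complex to the membrane and restrains β-catenin, was at 53.6, 72.5, 289 and 554 CPM in the Controls and 14.1 to 35.5 CPM (median 28.4) in Dnmt1cKO, with no overlap between the groups. The mean was 242 ± 234 CPM in Control and 27.4 ± 6.87 CPM in Dnmt1cKO (SD), a log2 fold change of -3.13 ± 0.57 (SE; edgeR, Benjamini-Hochberg adjusted p = 0.00159). It was -2.24 without the library labelled Control 4 (adjusted p = 0.0366), and -1.13 ± 0.45 (adjusted p = 0.426) without that library and Control 3, so these libraries carried most of the size. Within codes 4 to 7 the differences were -0.88, -1.53, -3.25 and -4.56, in a direction fixed in advance by the lack of overlap. Amer1 is X-linked and lies on chromosome X at 95420318 to 95444872, minus strand.

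β-catenin itself (Ctnnb1) was the most abundant of the genes, at 1935, 2085, 1215 and 2971 CPM in the Controls and 1592 to 3669 CPM (median 3048) in Dnmt1cKO. Per kb of exon it stood at 566 ± 199 (SD, n = 4) and 805 ± 176 CPM (SD, n = 8), and the log2 fold change of 0.51 ± 0.30 was not called (adjusted p = 0.393). Axin2, a β-catenin target often read as a reporter of the pathway, was at 4.55, 34.0, 2.26 and 0 CPM against 8.76 to 39.2 CPM (median 28.2). Control 2 lay among the Dnmt1cKO libraries and the log2 fold change of 1.24 ± 0.98 was not called (adjusted p = 0.548). Axin1, its constitutive relative, was at 93.6, 44.2, 18.9 and 2.84 CPM against 51.7 to 113 CPM (median 60.8; log2 fold change 0.73, adjusted p = 0.626).

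None of the 4 transcription factors was called by edgeR with all libraries, and none had an unadjusted p below 0.05. DESeq2 called Tcf7l2 lower and limma-voom called none. Lef1, an amplifier of β-catenin output that is itself a target, had 3.57 CPM in Control 1 and 0 in the other Controls, against 2.60 to 22.9 CPM (median 6.50) in Dnmt1cKO (log2 fold change 2.88 ± 1.47, adjusted p = 0.309). Without Control 1 no Control count of Lef1 was left and edgeR called it higher. That fit called 4.99% of all genes higher, against 1.03% with all libraries. Tcf7l2 was at 32.3, 38.1, 0.754 and 210 CPM against 5.16 to 30.5 CPM (median 28.3; log2 fold change -1.62, adjusted p = 0.298). Tcf7l1, the repressor of the family, was at 14.3, 8.43, 0 and 0 CPM against 8.27 to 24.0 CPM (median 16.3; adjusted p = 0.554), and Tcf7 at 8.61, 11.1, 0 and 0 CPM against 0 to 26.2 CPM (median 10.3; adjusted p = 0.679). Tcf7l2, Lgr4, Wnt7b and Lrp6 all had their highest level in the library labelled Control 4.

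**Figure D5:**
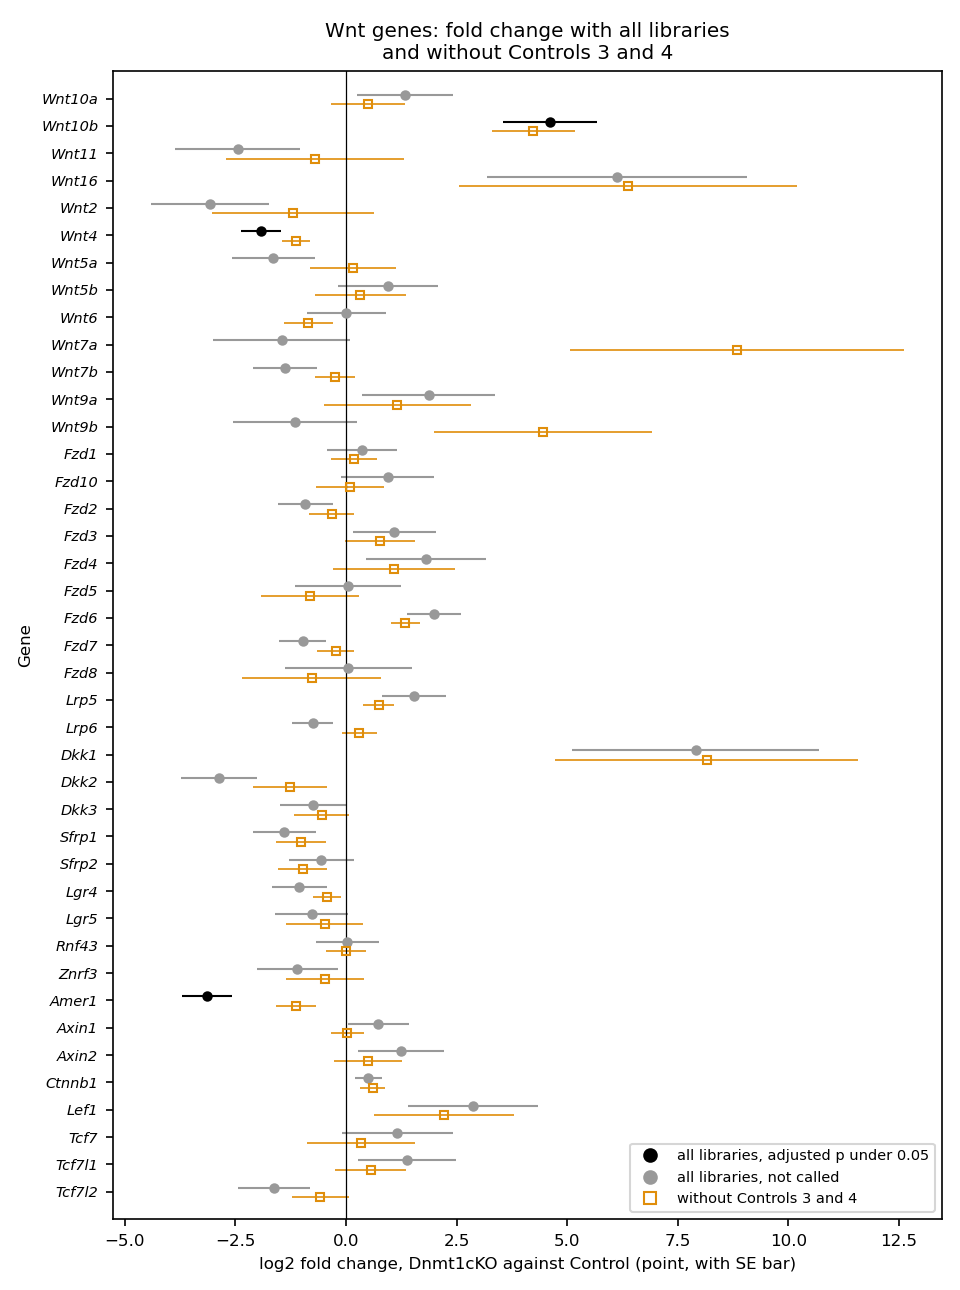
Log2 fold change of Dnmt1cKO against Control (horizontal axis) with its SE for the 41 tested genes, with all libraries (filled points, black where called) and without Control 3 and the library labelled Control 4 (open squares). Wnt10b (4.61 and 4.24) changes little, Amer1 (-3.13 and -1.13) moves towards 0, and the far positions of Dkk1, Wnt16 and, as a square, Wnt7a depend on the fit, since no Control count underlies them.

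Other genes of the pathway were read from a list of 58, of which 57 were in the table and 53 tested. None was called higher (1.03% of all genes) and 3 were called lower (1.55% of all genes), with a median of -0.06 against 0.22. With an unadjusted p below 0.05 edgeR gave 1 higher and 11 lower genes, against 8.19% and 9.54% of all genes. DESeq2 called 0 higher and 10 lower of the 51 to which it gave an adjusted p (8.47% of all genes were lower), and limma-voom called 0 higher and 0 lower. Btrc, the ubiquitin ligase component that recognises β-catenin, was at 74.9, 67.8, 52.8 and 506 CPM in the Controls and 19.97 to 54.8 CPM in Dnmt1cKO (log2 fold change -2.23 ± 0.59, adjusted p = 0.0349). Kremen1, a receptor of Dkk proteins, was at 42.2, 85.6, 38.5 and 634 CPM against 31.4 to 58.1 CPM (-2.17 ± 0.60, adjusted p = 0.0436). Without the library labelled Control 4 these changes were -0.75 (adjusted p = 0.482) and -0.27 (adjusted p = 0.851). Leaving out any single Dnmt1cKO library put the adjusted p of Kremen1 above 0.05 (0.0591 to 0.0844, edgeR). Btrc kept its call in such fits only without Dnmt1cKO 2 (adjusted p = 0.0396, edgeR).

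Prickle1, a planar polarity gene, was at 13.9, 0.674, 214 and 321 CPM against 1.35 to 27.1 CPM (-3.20 ± 0.87, adjusted p = 0.0411). Its change turned to 1.06 without Control 3 and the library labelled Control 4. Of the fits without a single Dnmt1cKO library, only that without Dnmt1cKO 4 kept the call (adjusted p = 0.0487, edgeR). Among the most abundant of the list, Tnks2, the tankyrase that marks Axin for degradation, had a log2 fold change of 0.03 (adjusted p = 0.973). The kinase gene Csnk1a1 had 0.16 (adjusted p = 0.864). Wls, the carrier needed for Wnt secretion, had 0.66 (adjusted p = 0.444), with 290, 188, 96.5 and 111 CPM in the Controls and 208 to 331 CPM in Dnmt1cKO.

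Of 29 genes listed as β-catenin targets, 23 were tested, 2 rose (Cd44 and Olfm4) and none fell, against 1.03% and 1.55% of all genes. Whether a listed gene is a β-catenin target in this epithelium was not tested. An unadjusted p below 0.05 in edgeR was found for 4 higher genes and 1 lower (Birc5), against 8.19% and 9.54% of all genes. DESeq2 called Birc5 lower and limma-voom called 0 lower. The median was 0.39 against 0.22 over all genes. Cd44, a hyaluronan receptor, was at 2.83, 1.01, 0 and 0 CPM in the Controls and 7.99 to 65.8 CPM in Dnmt1cKO, without overlap (log2 fold change 4.39 ± 1.22, adjusted p = 0.0419). Within the codes it was higher by 3.06 to 3.81, in a direction that the lack of overlap fixes in advance. It was not called without Control 3 and the library labelled Control 4 (3.81, adjusted p = 0.175). Olfm4, a secreted protein of intestinal stem cells, had no count in any Control and 0.208 to 38.8 CPM in Dnmt1cKO, at least 36.4-fold higher (adjusted p = 0.0488). Leaving out any single library other than Dnmt1cKO 8 put the adjusted p of Olfm4 above 0.05 (edgeR). Among such fits Cd44 kept its call only without Control 1, Control 3, Dnmt1cKO 2 or Dnmt1cKO 8. Its adjusted p reached 0.121 without Dnmt1cKO 3 (edgeR). Sp5 was at 0 in every Control and in 3 Dnmt1cKO libraries, and at 3.54 CPM or less in the others (adjusted p = 0.247). The most abundant targets were not called: Smoc2 (0.84, adjusted p = 0.721), Birc5 (-1.19, adjusted p = 0.144) and Jun (0.50, adjusted p = 0.628).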

How the data were processed

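Polyadenylated RNA of 12 libraries (4 Control, 8 Dnmt1cKO, grouped by the genotype label) was sequenced. The submitters' processing notes name RSEM 1.2.3, bcl2fastq 2.17.1.14, Bowtie 0.12.9 and build mm10. The values deposited by the authors are expected counts, in which reads that match several genes are divided by estimation, so paralogues and overlapping genes are uncertain. Of all genes, 38.5% had fractional values, and counts were rounded before testing. The annotation used, and whether strand was, is not given in the sources used here.

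In R 4.3.3, edgeR 4.0.16 compared Dnmt1cKO with Control by its quasi-likelihood F-test, using only genotype, TMM factors, robust dispersion and the filterByExpr filter (minimum count 10, minimum total 15). P-values were adjusted by Benjamini-Hochberg over 12761 genes, and the threshold was 0.05. The coefficient of variation between libraries was 0.984. CPM is the rounded count over the TMM-adjusted library total, and CPM per kb uses exon length in GENCODE M21 (GRCm38, equal to mm10). Within-code differences are of mean log2(CPM + 2). No pair of libraries matched within counting noise (lowest chi-square per degree of freedom 28.9). Labels do not say whether libraries of a group came from separate pools, so p-values reflect only how these libraries vary, which may be technical. No molecular identifiers are mentioned, and the floors of 3 counts cover counting error only. The SE of a log2 fold change comes from the F-test and so includes the spread between libraries. Alternatives were RLE factors, library totals alone, no filter, DESeq2 1.42.0, limma 3.58.1 (voom with quality weights), replicate blocks, leaving out each library, and leaving out Control 3 with the library labelled Control 4.

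The genes and the 10 gene lists were chosen with earlier results of these data known. Values per library are given for genes called, genes whose groups do not overlap, the 3 most abundant per role and those with an unadjusted p under 0.05. From the lists of other pathway genes and of β-catenin targets, called genes and the 3 most abundant are named, and Gata3 and Elavl3, the called genes of the marker lists, were added after their values were seen. Prominent other members, including those at 0, were added after their values were seen. For the marker lists whose range is not given above, the endothelial sum was 8.53 to 182 CPM in Control and 5.00 to 73.0 CPM in Dnmt1cKO. In the same order it was 0 to 353 and 16.6 to 87.8 CPM for immune cells, and 429 to 5826 and 10.5 to 1540 CPM for erythroid cells. It was 179 to 909 and 35.4 to 679 CPM for neural cells, and 0 to 1.72 and 0.571 to 12.6 CPM for hindgut.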

Additional observations from a re-analysis of the deposited data

Results flagged for a closer look

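In 44 groups of the per-library values of named genes, the gap of an extreme library to its nearest neighbour was compared with the whole range of the group by Dixon's 95% critical value, and 8 were above it. Chance gives about 1 in 20 for independent groups of normally distributed values. These were CPM without logs, of genes partly named for their values in these data, so the 8 cannot be read against that rate. In the Controls, Dkk2 (284 CPM), Wnt2 (125 CPM) and Wnt5a (386 CPM) were set apart in Control 3, and Wnt4 (1183 CPM) in the library labelled Control 4, which makes 4 of the 8. In Dnmt1cKO, Wnt16 was set apart in Dnmt1cKO 6 (4.60 CPM), Wnt2 in Dnmt1cKO 8 (21.7 CPM), Axin1 in Dnmt1cKO 2 (113 CPM) and Fzd7, as the lowest value, in Dnmt1cKO 8 (19.7 CPM). Control 3 has the highest stromal sum (14230 CPM), and its part in these values was not tested.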

How the results depend on the processing

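The limits are the Controls. Over all 12761 genes, 132 were called higher and 198 lower, while RLE scaling gave 170 and 726, unscaled totals 113 and 47, DESeq2 487 and 1030, and limma-voom 7 and 25. Without Control 3 and the library labelled Control 4 they were 45 and 2. Leaving out 1 library gave 60 (without the library labelled Control 4) to 657 (without Control 1) higher and 36 (without the library labelled Control 4) to 494 (without Control 1) lower. Of the Wnt genes, 1 was higher and 2 lower. The higher count was 2 with DESeq2 and 0 with limma-voom or without Control 3 and the library labelled Control 4, and 1 to 3 without 1 library (3, Wnt10b, Fzd6 and Lef1, without Control 1). The lower count was 1 with library totals alone, 5 with DESeq2 (Amer1, Dkk2, Tcf7l2, Wnt4, Wnt7b), 0 with limma-voom, 0 without Control 3 and the library labelled Control 4, and 2 to 3 without 1 library. Other pathway genes called lower, 3, were 9 with RLE factors, 0 with library totals alone, 1 without the filter, 10 with DESeq2, 0 with limma-voom, 0 without Control 3 and the library labelled Control 4, and 0 to 6 without 1 library, and those called higher were 0 to 1. Targets called higher, 2, were 0 with library totals alone, limma-voom, or without Control 3 and the library labelled Control 4, and 0 to 2 without 1 library, and 1 target was called lower with either DESeq2 or RLE factors. Prickle1 turned to 1.29 with limma-voom and 1.06 without Control 3 and the library labelled Control 4, and within codes 4 and 5 to 0.22 and 3.45. Kremen1 turned to 0.14 and 0.05 within codes 4 and 6. The cause was not tested.

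The median log2 fold change of all genes was 0.22 (RLE 0.07, library totals 0.38). That of the Wnt genes was 0.03, -0.04 and 0.11, with 37 and 41 of 41 keeping their sign. Without Control 3 and the library labelled Control 4, 33 of 41 kept it. Deviations of libraries with the same number were not correlated (-0.046 to 0.054 by description code, -0.055 to 0.061 by title number). With single libraries of such unequal depth, this cannot decide whether the numbers pair the libraries, and the labels do not say. A replicate block by description code called 137 higher and 84 lower of all genes, the same 1 and 2 of the Wnt genes in number, 0 other pathway genes and 0 targets. A replicate block by title number called 21 and 29 of all genes, 0 and 0 Wnt genes, 0 other pathway genes and 0 targets.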

Other observations

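Some of the Wnt genes lie in pairs in the mouse genome, and in 3 of 4 pairs 1 member was at or near 0 in Dnmt1cKO. These members (Wnt1, Wnt3 and Wnt3a) were also at 0 in every Control. Wnt8a and Wnt8b, which are not in such pairs, were at 0 in every library too. Wnt10b and Wnt1, 11706 bases apart on chromosome 15 and on opposite strands, were at 25.1 to 86.8 CPM and at 0 in every Dnmt1cKO library. Wnt9b and Wnt3, 24328 bases apart on chromosome 11, were at 0 to 24.7 CPM and at 0 in all Dnmt1cKO libraries but one (0.584 CPM). Wnt9a and Wnt3a, 16175 bases apart on the same chromosome, were at 0 to 14.3 CPM and at 0. Wnt6 and Wnt10a, 6193 bases apart on chromosome 1 and on the same strand, were both present, at 7.42 to 44.9 CPM and 4.50 to 39.9 CPM in Dnmt1cKO, and both were at 0 in the library labelled Control 4.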
